A study of Homo sapiens with 4 samples.

Results

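Among the genes counted in this single-cell experiment are 10 known for work in germ cells and meiosis: SYCP3, HORMAD1, PIWIL2, MAEL, DDX43, TEX19, STK31, DAZL, BOLL and BRDT. They were chosen by symbol, and all 10 were found among the 40877 names that stand for 1 gene, each as 2 counted features (20 of 61838). The cells were H1299, from a human non-small cell lung cancer, and HCT116, from a human colorectal cancer. Both received either DMSO, the solvent, or with 500 nM DAC (decitabine, which blocks DNA methyltransferases) for 72 h and 500 nM SB939 (which blocks histone deacetylases) for 18 h, the medium being changed every 24 h. The treated cells are called DAC+SB here, and each of the 4 groups was 1 library of 5′ single-cell RNA sequencing, in which counts lie near transcript starts. No test was made between groups, each being 1 library. A difference below is therefore a difference between libraries, and every interval is a 95% interval for counting error only.

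Germline genes of this kind are transcribed in the testis, ovary or embryonic germ cells and are silent in most other tissues. Many carry CpG-rich promoters that are methylated in somatic cells, and many are also held down by PRC1.6, a Polycomb complex that reaches DNA through MGA with MAX and through E2F6 with its partner DP1. Because tumours sometimes express them, several are known as cancer-testis genes. Their products fall into a few roles. SYCP3 and HORMAD1 build and mark the axis of the paired meiotic chromosomes. PIWIL2 binds piRNAs, the small RNAs that silence transposons in germ cells, and MAEL works in the same pathway. DDX43 is a DEAD-box RNA helicase, TEX19 a mammalian germline protein and STK31 a testis protein with a tudor domain. DAZL and BOLL are RNA-binding proteins of the DAZ family that control translation, and BRDT is the testis member of the BET bromodomain proteins, which read acetylated histones.

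The 4 libraries held between 3578 and 4327 cells and between 38927267 and 64524196 gene and transposable element (TE) counts. The median H1299 cell had 17369.5 counts with DMSO and 15784.5 with DAC+SB, and the median HCT116 cell 16257.5 and 8449, which makes treated HCT116 the shallowest library. Mitochondrial genes took a median of 8.33% and 8.87% of a cell's counts in H1299, DMSO first, and 15.8% and 18.6% in HCT116. Of 15158 cell barcodes, 131 occurred in more than 1 library. A list of 12 mesenchymal markers of H1299 summed to 2919 and 1438 CPM (counts per 1000000 gene and TE counts of the library) in the H1299 libraries, against 256 and 437 in the HCT116 libraries. A list of 12 epithelial markers summed to 123 and 77.5 CPM in HCT116, against 0.496 and 17.2 in H1299, so each list was higher in its own line. In HCT116 DMSO the epithelial markers CDH17, CEACAM6 and GPA33 were at 0 counts.

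Each gene was counted as a feature without a number, listed from 1 count, and a feature numbered 1, listed in a library only from 10 counts. A gene with 0 listed counts may therefore have had some in its numbered feature, and a ratio that takes 0 as 3 counts is a lower bound only if it had none. For the 10 genes, the value from features listed in both libraries of a line is given beside each such ratio. For a gene with no listed DMSO count it rests on the feature without a number and is a lower bound for that feature.

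Promoter sequences were taken from RefSeq (GRCh38.p14), whose table held 11 annotated starts for 7 of the 10 genes; HORMAD1, PIWIL2 and TEX19 were not in it. The 250 bases before each start were searched on both strands for the E-box CACGTG, its longer form TCACGTG, the E2F-type words GGCGGGA and GCGGGAA, and TATAAA. One window for each of the 7 genes is printed because it holds an E-box or a GGCGGGA word, shown in capitals on whichever strand it reads. The sequences run 5′ to 3′ on the gene's own strand and end at the base before the start.

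BRDT, chr1:91949151-91949400: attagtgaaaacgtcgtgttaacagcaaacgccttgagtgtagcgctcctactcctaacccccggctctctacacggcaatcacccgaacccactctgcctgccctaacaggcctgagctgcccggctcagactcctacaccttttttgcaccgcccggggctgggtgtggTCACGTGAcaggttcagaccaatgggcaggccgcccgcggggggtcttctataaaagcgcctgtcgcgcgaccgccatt
MAEL, chr1:166989030-166989279: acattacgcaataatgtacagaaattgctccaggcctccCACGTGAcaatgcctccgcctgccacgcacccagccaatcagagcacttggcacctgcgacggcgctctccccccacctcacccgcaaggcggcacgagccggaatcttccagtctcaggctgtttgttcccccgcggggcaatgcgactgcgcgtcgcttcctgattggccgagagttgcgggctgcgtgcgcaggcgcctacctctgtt
STK31, chr7:23709969-23710218: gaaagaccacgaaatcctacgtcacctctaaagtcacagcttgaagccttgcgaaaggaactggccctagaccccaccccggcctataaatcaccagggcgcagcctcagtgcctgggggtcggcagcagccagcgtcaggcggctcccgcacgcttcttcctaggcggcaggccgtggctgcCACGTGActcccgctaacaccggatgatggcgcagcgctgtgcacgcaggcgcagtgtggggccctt
DAZL, chr3:16604791-16605040: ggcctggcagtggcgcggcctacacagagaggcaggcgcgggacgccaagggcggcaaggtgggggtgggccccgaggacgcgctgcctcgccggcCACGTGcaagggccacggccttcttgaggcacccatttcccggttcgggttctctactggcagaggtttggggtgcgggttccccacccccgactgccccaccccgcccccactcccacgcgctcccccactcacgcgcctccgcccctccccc
SYCP3, chr12:101739463-101739712: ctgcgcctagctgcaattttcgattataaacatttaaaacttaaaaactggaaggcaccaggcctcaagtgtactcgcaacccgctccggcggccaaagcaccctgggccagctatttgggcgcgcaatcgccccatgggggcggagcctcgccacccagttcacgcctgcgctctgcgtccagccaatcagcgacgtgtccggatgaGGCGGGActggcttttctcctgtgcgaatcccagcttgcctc
DDX43, chr6:73394578-73394827: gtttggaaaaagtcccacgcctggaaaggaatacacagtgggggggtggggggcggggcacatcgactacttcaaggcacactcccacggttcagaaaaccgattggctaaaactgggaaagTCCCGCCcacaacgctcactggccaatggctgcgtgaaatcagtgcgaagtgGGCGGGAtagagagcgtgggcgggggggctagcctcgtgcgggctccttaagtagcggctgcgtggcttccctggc
BOLL, chr2:197785320-197785569: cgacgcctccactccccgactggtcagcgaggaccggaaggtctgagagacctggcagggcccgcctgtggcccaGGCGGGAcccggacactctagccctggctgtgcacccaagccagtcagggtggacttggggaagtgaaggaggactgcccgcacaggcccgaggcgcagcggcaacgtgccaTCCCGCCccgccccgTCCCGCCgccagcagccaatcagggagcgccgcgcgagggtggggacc

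BRDT, MAEL and STK31 lie on the plus strand, DAZL, SYCP3 and BOLL on the minus strand and DDX43 on the plus strand. CACGTG was found for BRDT, MAEL, STK31 and DAZL, in 5 of the 11 windows, against 6.34% of all 35116 windows in the table. The E-box began 78 bases before the printed BRDT start, 211 before the MAEL start, 67 before the STK31 start and 154 before the DAZL start. In BRDT, MAEL and STK31 it was part of TCACGTG, which 3.31% of all windows hold. GGCGGGA was found for SYCP3, DDX43 and BOLL, in 3 of the 11 windows, against 13.5% of all windows. It began 42 bases before the SYCP3 start, 128 and 76 bases before the DDX43 start, and 175, 63 and 48 bases before the BOLL start. Each of the 7 genes thus had 1 of these 2 words in at least 1 window, whereas 21.9% of the 27305 genes in the table do. The joining of these 2 words was not planned and leaves out GCGGGAA, and some genes had more than 1 window to search. Both words contain CG, and the comparison with all genes was not matched for CpG, so this count is a description only. GCGGGAA was in none of the 11 windows and in 5.52% of all windows, and TATAAA was in 3 of 11 and in 10.7%. The other windows of MAEL, BOLL and DAZL held none of these words, and the 2 BRDT windows overlap and share their E-box. The windows were rich in CpG: the ratio of observed to expected CG ran from 0.672 to 1.12 with a median of 0.856, against a median of 0.558 (interquartile range 0.220 to 0.845) over all windows. These matches describe letters in a window. The deposited features carry no coordinates, so which annotated start gave the counts below is not known.

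The 10 genes lay below 1 CPM with DMSO, with 3 exceptions, and 9 of them were higher with DAC+SB in both lines. The exceptions were HORMAD1 and, at a lower level, DDX43 in H1299, and TEX19 in HCT116. In H1299, 4 genes had 0 listed counts with DMSO and 9 of 10 were at least 4-fold higher with DAC+SB, against 11.0% of the 14610 genes that reached 100 counts in 1 of the libraries. In HCT116, 3 genes had 0 listed counts with DMSO and 6 of the 7 that reached 100 counts were at least 4-fold higher, against 9.63% of 13539 genes. STK31, BOLL and HORMAD1 stayed below 100 counts in HCT116. None of the genes was at least 4-fold lower in either line, against 0.349% and 3.69% of all genes. These counts describe the libraries only, because 8 genes in H1299 and 6 in HCT116 reached 100 counts through the treated library alone and so had to differ. Of the genes under 30 counts with DMSO, 8 of 8 members reached 100 counts with DAC+SB in H1299 and 5 of 8 in HCT116, against 4.36% and 3.28% of all such genes. In H1299 these are the same 8 genes as above, and the limit of 30 was chosen after the values were seen, so that nothing is added by this count.

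**Figure D1:**
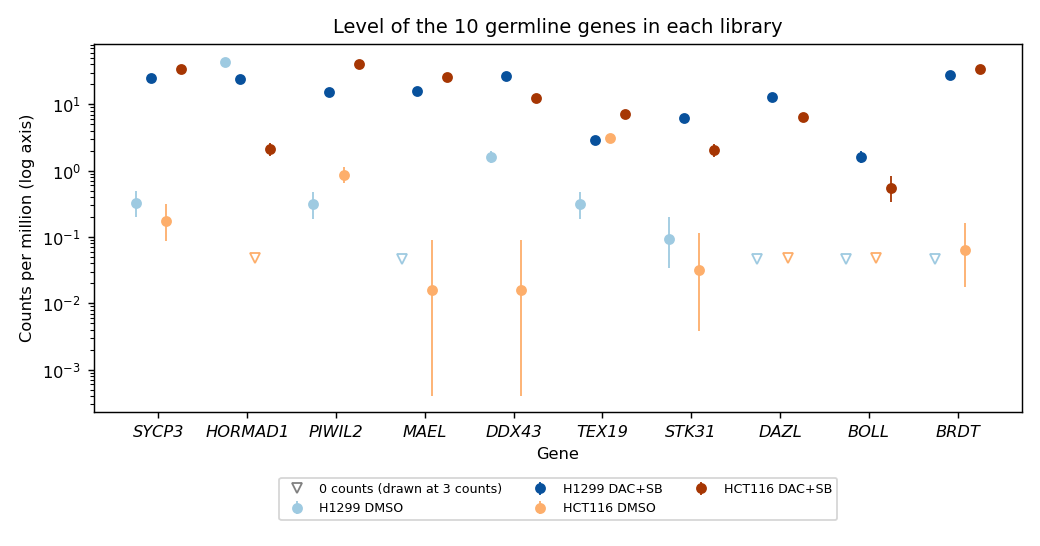
Level of each gene in each library, in CPM on a log axis, with exact Poisson 95% intervals; open triangles mark genes with 0 counts, drawn at the level of 3 counts. HORMAD1 in H1299 DMSO, at 43.9 CPM, is the highest DMSO point, and every other DMSO point lies at or below 3.16 CPM.

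Of the genes of the meiotic chromosome axis, SYCP3 was higher in both treated lines while HORMAD1 was higher in HCT116 only. SYCP3 (ENSG00000139351.14, chromosome 12, 101728648 to 101739472 on GRCh38, minus strand), a structural protein of the lateral element of the synaptonemal complex, had 21 DMSO and 1581 DAC+SB counts in H1299, and 11 and 1342 in HCT116. Both treated libraries were far above both DMSO libraries, at 25.3 and 34.5 CPM against 0.325 and 0.176. The log2 ratio of DAC+SB to DMSO was 6.28 (5.66 to 6.98) in H1299 and 7.62 (6.77 to 8.62) in HCT116. The HCT116 ratio was 6.08 when a feature had to be listed in both libraries of the line to be counted. SYCP3 lies wholly within CHPT1, on the other strand, with the use of strand in counting not given in the sources used here. CHPT1, a phospholipid synthesis gene, went the other way, with log2 ratios of -0.44 (-0.55 to -0.32) and -1.50 (-1.76 to -1.25).

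HORMAD1 (ENSG00000143452.15, chromosome 1, 150698060 to 150720888, minus strand), which marks chromosome axes that have not yet paired, had 2833 DMSO and 1500 DAC+SB counts in H1299, and 0 and 82 in HCT116. It was the only member already abundant before treatment, and in H1299 it was the only one that was lower with DAC+SB. Its log2 ratio there was -0.87 (-0.96 to -0.78), a level 1.83-fold lower, from 43.9 (42.3 to 45.6) to 24.0 (22.8 to 25.3) CPM. In HCT116 it had 0 listed DMSO counts and 2.11 (1.68 to 2.61) CPM with DAC+SB, a log2 ratio of 5.46 with 0 taken as 3 counts. For the feature without a number alone, 32 of the 82 counts, it was at least 4.10. Even so, HORMAD1 in treated HCT116 stayed below its level in either H1299 library. The treated H1299 level was 11.4-fold the treated HCT116 level. Summed over features, no other member differed as much as 4-fold between the treated lines. At that size 8.97% of 14875 genes were higher in H1299 and 4.65% higher in HCT116. Some single features lay further apart than these sums. In raw counts, treated H1299 first, DAZL without a number had 598 and 85, and STK31 without a number 385 and 51. Numbered PIWIL2 had 316 and 908.

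Both piRNA pathway members were higher in both treated lines, and more so in level in HCT116. PIWIL2 (ENSG00000197181.11, chromosome 8, 22275297 to 22357563, plus strand), which binds piRNAs, had 20 DMSO and 961 DAC+SB counts in H1299, and 54 and 1589 in HCT116. The treated libraries lay at 15.4 and 40.8 CPM and the DMSO libraries below 1 CPM. The log2 ratio was nearly equal in the lines, namely 5.63 (5.00 to 6.35) in H1299 against 5.57 (5.17 to 5.98) in HCT116, a difference of 0.07 (-0.68 to 0.82). From features listed in both libraries the H1299 value was 5.06 (4.42 to 5.78), and the HCT116 value was 5.57 as before. The treated HCT116 level was 2.65-fold that of treated H1299.

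MAEL (ENSG00000143194.12, chromosome 1, 166975582 to 167022214, plus strand), needed for transposon silencing in spermatogenesis, had 0 DMSO and 1001 DAC+SB counts in H1299, and 1 and 1002 in HCT116. It was thus practically absent from both DMSO libraries. In H1299 its log2 ratio was 8.43 with 0 taken as 3 counts, and at least 7.65 for the feature without a number. In HCT116 the log2 ratio was 10.65 (8.17 to 15.96), a wide interval because a single DMSO count stands below it, and 9.66 (7.18 to 14.97) from features listed in both libraries.

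DDX43 and TEX19 started from different levels in the lines. DDX43 (ENSG00000080007.7, chromosome 6, 73394748 to 73417569, plus strand), the RNA helicase, had 104 DMSO and 1673 DAC+SB counts in H1299, and 1 and 494 in HCT116. The order of the libraries was H1299 DAC+SB at 26.8 CPM, HCT116 DAC+SB at 12.7, H1299 DMSO at 1.61 and HCT116 DMSO at 0.0160. Its log2 ratio was 4.06 (3.77 to 4.36) in H1299 and 9.63 (7.15 to 14.94) in HCT116, where features listed in both libraries gave 8.71 (6.22 to 14.02). The H1299 ratio was lower by 5.58 (-8.42 to -2.73 as the H1299 minus HCT116 difference), although treated H1299 held the higher level. That interval is a normal approximation and rests on 1 HCT116 DMSO count. TEX19 (ENSG00000182459.4, chromosome 17, 82359247 to 82363776, plus strand), whose mouse relative restrains retrotransposons, had 20 DMSO and 179 DAC+SB counts in H1299, and 198 and 283 in HCT116. Untreated HCT116, at 3.16 (2.74 to 3.63) CPM, was level with treated H1299, at 2.87 (2.46 to 3.32) CPM, since their intervals overlap. For TEX19 the log2 ratio was 3.21 (2.54 to 3.96) in H1299 and 1.20 (0.93 to 1.47) in HCT116, the smallest increase of the 10 genes.

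The DAZ family members DAZL and BOLL had 0 listed counts in both DMSO libraries. DAZL (ENSG00000092345.13, chromosome 3, 16586792 to 16670306, minus strand), a translation regulator of early germ cells, had 803 counts in H1299 DAC+SB and 251 in HCT116 DAC+SB, or 12.9 (11.99 to 13.8) and 6.45 (5.67 to 7.30) CPM. With 0 taken as 3 counts its log2 ratios were 8.11 and 7.07. For the feature without a number alone they were at least 7.69 in H1299 and at least 5.51 in HCT116, where that feature held 85 of the 251 counts. An annotated gene, AC011997.1, overlaps BOLL on the other strand. BOLL (ENSG00000152430.17, chromosome 2, 197726879 to 197786762, minus strand), which acts later, in meiotic male germ cells, had 100 and 21 counts in the same libraries, or 1.602 (1.30 to 1.95) and 0.539 (0.334 to 0.825) CPM. The log2 ratio of BOLL was 5.11 in H1299 and 3.49 in HCT116 with 0 taken as 3 counts, and at least 4.59 and 3.49 for the feature without a number. BOLL was the lowest of the 10 genes in both treated libraries by count. DAZL was 1.99-fold and BOLL 2.97-fold higher in treated H1299 than in treated HCT116. The BOLL ratio includes 30 counts of its numbered feature in H1299, which was not listed in treated HCT116. Without a number BOLL had 70 and 21 counts, H1299 first. For DAZL the feature without a number had 598 and 85 counts, and the numbered one 205 and 166.

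BRDT and STK31 were also higher in both treated lines, from 6 DMSO counts or fewer. BRDT (ENSG00000137948.18, chromosome 1, 91949371 to 92014426, plus strand), the testis BET protein, had 0 DMSO and 1719 DAC+SB counts in H1299, and 4 and 1330 in HCT116. In H1299 its log2 ratio was 9.21 with 0 taken as 3 counts, and at least 8.38 for the feature without a number. In HCT116 it was 9.06 (7.70 to 10.94), and 8.10 (6.74 to 9.98) from features listed in both libraries. STK31 (ENSG00000196335.12, chromosome 7, 23710167 to 23832513, plus strand) had 6 DMSO and 385 DAC+SB counts in H1299, and 2 and 80 in HCT116. Its log2 ratios were close, at 6.05 (4.92 to 7.51) and 6.01 (4.11 to 9.08), and the difference of 0.04 had an interval of -2.29 to 2.38. From features listed in both libraries the HCT116 value of STK31 was 5.36 (3.43 to 8.44). Between the treated lines, STK31 was higher in H1299 by 1.59 on the log2 scale (1.23 to 1.95). Of its 80 treated HCT116 counts, 29 came from a numbered feature not listed in treated H1299.

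**Figure D2:**
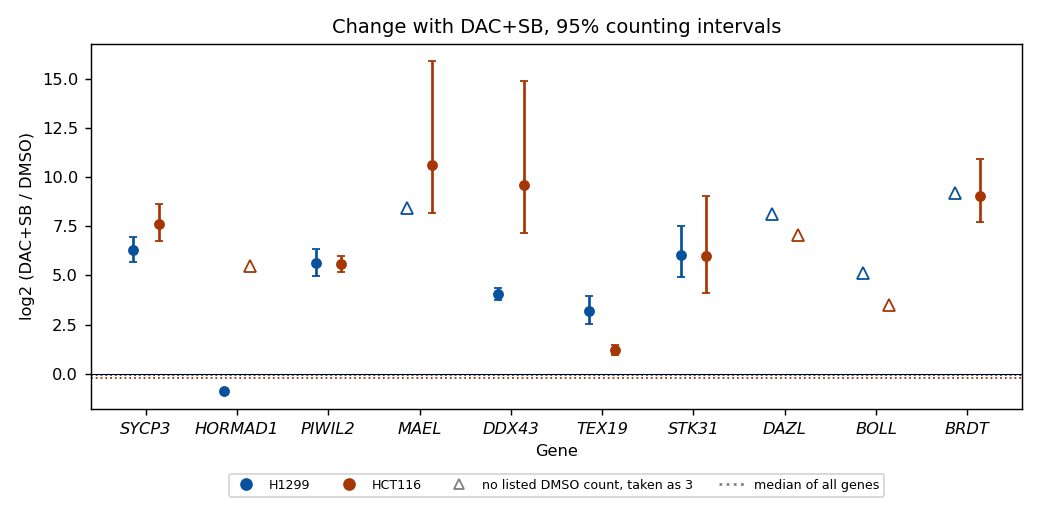
Log2 ratio of DAC+SB to DMSO for each gene in H1299 and HCT116, with exact conditional 95% intervals; open triangles are genes with no listed DMSO count, taken as 3, and dotted lines the medians of all genes, -0.07 and -0.23. Every point lies above 0 except HORMAD1 in H1299, at -0.87.

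Summed over the 10 genes, the level went from 46.6 (44.9 to 48.3) to 159 (156 to 162) CPM in H1299 and from 4.33 (3.83 to 4.87) to 166 (162 to 170) CPM in HCT116. The treated lines therefore ended 1.05-fold apart although they began 10.8-fold apart. HORMAD1 held 2833 of the 3004 counts in H1299 DMSO and 0 of the 271 listed in HCT116 DMSO. The other members together had fewer counts in H1299 DMSO than in HCT116 DMSO. The starting gap was therefore that of HORMAD1 and not of the set. The summed log2 ratio was 1.77 (1.71 to 1.83) in H1299, against 5.26 (5.09 to 5.45) in HCT116. Without HORMAD1 it was 5.67 (5.45 to 5.89) and 5.25 (5.07 to 5.43). That sum without HORMAD1 was added after the values were seen. With features listed in both libraries of a line, the sum over all 10 genes gave 1.49 in H1299 and 4.56 in HCT116.

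The makeup of the treated sums differed between the lines. By treated level, PIWIL2 at 2.65-fold, TEX19 at 2.54-fold, MAEL at 1.61-fold, SYCP3 at 1.36-fold and BRDT at 1.24-fold were higher in HCT116. HORMAD1, STK31, BOLL, DDX43 at 2.11-fold and DAZL were higher in H1299. The counting intervals of these ratios all excluded equality, but a line is represented by 1 library. For PIWIL2 the interval is too narrow, as its thinned counts in treated HCT116 had a variance 2.05 times their mean. The ratios sum the features of a gene, which need not go the same way. Scaled by totals of 62428673 (treated H1299) and 38927267 (treated HCT116), numbered DAZL was higher in HCT116, from 205 and 166 counts. SYCP3 without a number was about level, from 740 and 462 counts.

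The balance between the features of a gene, with positions not given in the sources used here, differed between the treated lines for several genes. The numbered feature held 25.5% of DAZL counts in treated H1299 (205 of 803) and 66.1% in treated HCT116 (166 of 251). For PIWIL2 it held 32.9% in treated H1299 and 57.1% in treated HCT116, and for SYCP3 53.2% and 65.6%. For DDX43 it held 34.7% and 47.2%, for MAEL 41.6% and 49.8%, and for TEX19 45.8% and 48.1%. BRDT was close, at 43.7% and 48.6%, and so was HORMAD1, at 64.3% and 61.0%, which in H1299 DMSO stood at 60.7%. The numbered feature of STK31 was listed in treated HCT116 alone, with 29 counts, and that of BOLL in treated H1299 alone, with 30. The share of numbered features over all genes was not computed, so a difference between whole libraries cannot be told apart from one of these genes.

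Cells were compared after each was thinned at random to 3300 counts, for which 402 treated HCT116 cells were too shallow and were set aside. With DMSO, 0 of 3578 H1299 cells had a count of DAZL, BRDT, BOLL or MAEL, either before or after thinning. As a share of cells with a count at this depth, 3 of 3578 would be 0.0838%; this does not limit the cells that express a gene, nor counts in an unlisted numbered feature. In H1299 DAC+SB the share was 8.02% (7.17 to 8.94) for SYCP3, 7.49% for both BRDT and DDX43, 4.59% for both MAEL and PIWIL2, 4.16% for DAZL, 1.80% for STK31, 0.966% for TEX19 and 0.564% for BOLL. In HCT116 DAC+SB it was 10.2% (9.26 to 11.2) for BRDT, 9.38% for SYCP3, 8.82% for PIWIL2, 7.39% for MAEL, 3.44% for DDX43, 2.34% for TEX19, 1.96% for DAZL, 0.586% for STK31, 0.535% for HORMAD1 and 0.280% for BOLL. HORMAD1 went from 13.2% (12.1 to 14.3) of H1299 DMSO cells to 6.87% (6.08 to 7.73) with DAC+SB. Without thinning, at the median depths given above, HORMAD1 was seen in 47.4% and 28.96% of H1299 cells, BRDT in 30.2% of treated H1299 and 22.0% of treated HCT116 cells, and MAEL in 18.5% and 16.7%. For BRDT and MAEL the share of treated cells was thus higher in H1299 before thinning and higher in HCT116 after it. No cell type known to lack these RNAs was analysed, so the DMSO cells are the only comparison. Being separate libraries, they do not measure free RNA in the treated libraries, and its part was not tested.

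**Figure D3:**
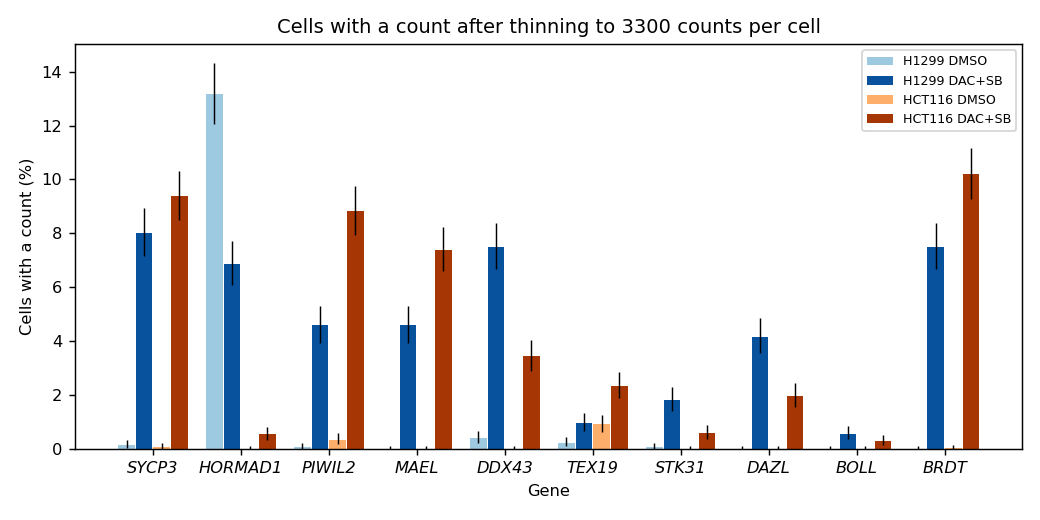
Share of cells with at least 1 count of each gene after thinning to 3300 counts per cell, with Clopper-Pearson 95% intervals, for the 4 libraries. The treated bars stand above the DMSO bars of the same line for every gene but HORMAD1 in H1299, which goes from 13.2% to 6.87%.

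At this depth 37.7% (36.1 to 39.3) of treated H1299 cells and 37.4% (35.9 to 38.9) of treated HCT116 cells had a count of at least 1 of the 10 genes, against 13.9% and 1.31% with DMSO. At least 2 of the genes were seen together in 7.62% (6.79 to 8.52) of treated H1299 and 6.68% (5.91 to 7.50) of treated HCT116 cells. The product of the genes' separate shares gives 7.46% and 6.83%, inside both intervals. The most members seen in a thinned cell was 4. Of the pairs for which that product gives at least 20 cells, 4 in H1299 and 6 in HCT116, observed over product ran from 0.759 (BRDT with SYCP3) to 1.12 (DDX43 with SYCP3) in H1299, and from 0.794 (BRDT with PIWIL2) to 1.15 (BRDT with SYCP3) in HCT116. BRDT with SYCP3 thus stood at the bottom of the range in one line and at the top in the other. These ratios rest on 17 to 43 cells and are descriptions.

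PIWIL2 was the most unevenly spread of the genes in treated HCT116. Its thinned counts had a variance 2.05 times their mean, against 0.994 to 1.26 for the other 9 genes there and 1.10 for PIWIL2 in treated H1299. The 346 thinned cells with PIWIL2 held 1.48 counts each on average, and before thinning 1 cell held 28. The median TE share was 2.52%, 2.61% and 2.42% in treated H1299 cells with 0, 1 and 2 members seen, and 4.85%, 4.79% and 4.76% in treated HCT116 cells. Before thinning these cells had medians of 15709.5, 15727 and 16899 counts in H1299 and 9045, 9278 and 9595 in HCT116. At this depth a cell with 0 members seen may still express them, so a relation of TE share to member level was not tested.

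Genes next to the members were also read. Other genes within 100 kb of a member that reached 100 counts in either library of a line numbered 30 in H1299 and 29 in HCT116. Their median log2 ratio was -0.12 and -0.38, and 5 and 4 of them were at least 4-fold higher, shares near the 11.0% and 9.63% of all genes. Those beside DDX43 were the same in both lines: OOEP and KHDC3L, which encode parts of a maternal complex of the egg, and DPPA5, a gene of pluripotent and germ cells. OOEP had 64 and 4007 counts in H1299 and 2 and 1242 in HCT116, DMSO first, with log2 ratios of 6.02 (5.66 to 6.40) and 9.96 (8.11 to 13.01). KHDC3L, at 0 with DMSO, had 989 and 153 DAC+SB counts, and DPPA5, also at 0, had 332 and 208. KHDC1, MTO1 and EEF1A1 in the same stretch had log2 ratios between -1.32 and -0.33. OOEP runs on the strand opposite to DDX43, their annotated starts are 385 bases apart and their first 386 bases overlap, so without a statement that strand was used, counts there cannot be told apart. The other genes at least 4-fold higher were PHYHIP near PIWIL2 and CD7 near TEX19 in H1299, and FAM221A near STK31 in HCT116, where SECTM1 near TEX19 was at -2.04 (-2.76 to -1.39). These neighbours were named after their values were seen.

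**Figure D4:**
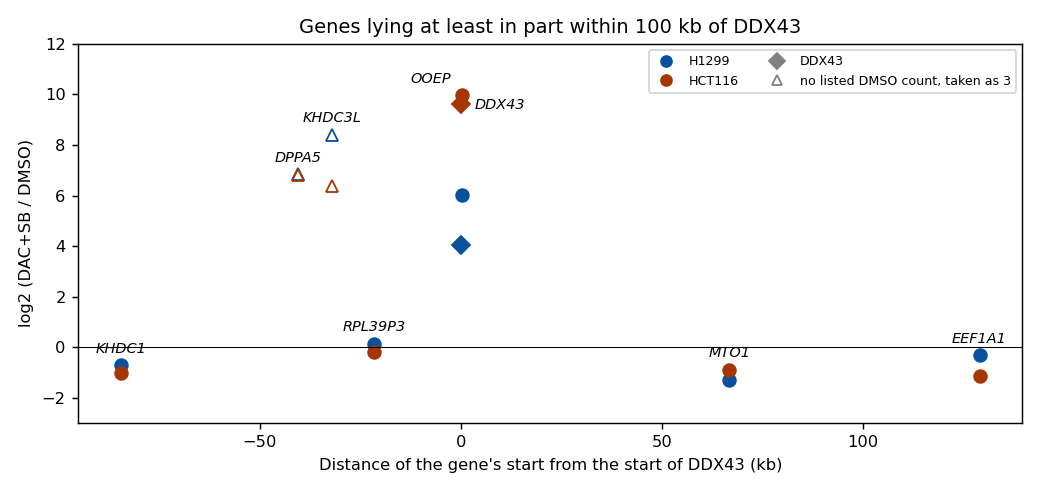
Log2 ratio of DAC+SB to DMSO for genes that lie at least in part within 100 kb of DDX43, by the distance of their start from the start of DDX43 in kb; diamonds are DDX43 and open triangles genes with no listed DMSO count, taken as 3. OOEP, KHDC3L and DPPA5 stand above 6 in both lines (the DPPA5 marks, 6.84 and 6.80, overlap), while KHDC1, RPL39P3, MTO1 and EEF1A1 lie between -1.32 and 0.13.

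The wider germline programme was described from fixed lists that leave the 10 members out. The lists were chosen with earlier results of these data known. Counts below are raw, while ratios are scaled by library total. Of 19 piRNA pathway genes, 12 in H1299 and 15 in HCT116 had under 30 counts with DMSO, and 5 and 7 of these reached 100 counts with DAC+SB, against 4.36% and 3.28% of all such genes. By the 4-fold measure 6 of 12 genes with 100 counts in H1299 and 7 of 11 in HCT116 were higher, against 11.0% and 9.63% of all genes, and 0 were lower, against 0.349% and 3.69%. The 2 with most treated counts in both lines were GTSF1, a PIWI cofactor, and TDRD12, a tudor-domain protein. Neither was silent beforehand in H1299, where the log2 ratio of GTSF1 was 0.52 (0.47 to 0.58) from 4934 DMSO counts and that of TDRD12 -0.08 (-0.13 to -0.03) from 6245. In HCT116 GTSF1 went from 11116 to 4802, a log2 ratio of -0.52 (-0.57 to -0.48), and TDRD12 from 14 to 809, a log2 ratio of 6.54 (5.78 to 7.42).

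Of 26 genes of the meiotic axis and recombination, 25 were found (not TEX12), and 4 of 16 genes in H1299 and 4 of 6 in HCT116 were at least 4-fold higher (all genes, 11.0% and 9.63%). Of the 11 and 20 genes under 30 counts with DMSO, 3 and 2 reached 100 with DAC+SB, against 4.36% and 3.28% of all such genes. Like HORMAD1, several were already transcribed in H1299 before treatment: TEX15, known from male meiosis, had a log2 ratio of 0.96 (0.86 to 1.06) from 1149 DMSO counts, and SYCP2, the axis partner of SYCP3, one of -0.36 (-0.45 to -0.27) from 2415. In HCT116 TEX15 went from 0 listed counts to 664, or 8.48 on the log2 scale with 0 taken as 3, and MSH5, a crossover factor, was at -0.69 (-0.83 to -0.54). Among 23 regulators of germ cell fate, 8 of 13 in H1299 and 8 of 9 in HCT116 were higher, against the same 11.0% and 9.63%. Of the 16 and 19 under 30 counts with DMSO, 7 and 5 reached 100 with DAC+SB, set against the same 4.36% and 3.28%. LIN28B, which blocks let-7 maturation, was at -0.38 in H1299, from 4497 counts, and went from 0 to 385 in HCT116. SOHLH2, a germ cell transcription factor, was at -1.11 (-1.24 to -0.97) in H1299, and TEX14, of germ cell bridges, at 4.41 (4.16 to 4.68) in HCT116. Among 16 genes listed as late spermatogenic, 14 were under 30 counts with DMSO in each line, and 3 and 1 of them reached 100. By the 4-fold measure 3 of 4 and 2 of 3 were higher, against 11.0% and 9.63% of all genes. The first count is set against 4.36% and 3.28% of all such genes. The testis linker histone HIST1H1T had 2 DMSO and 832 DAC+SB counts in H1299, and 57 and 286 in HCT116, and LDHC, the testis lactate dehydrogenase, had 4 and 131 in H1299; both are named after their values were seen. The testis histone HIST1H2BA had 0 DMSO and 1189 DAC+SB counts in H1299, and 4 and 495 in HCT116. CREM, transcribed in many tissues, was at 0.17 and -0.23. PGK2, ODF1, ACTL7A and SPATA19 of this list, also named after their values were seen, had at most 7 DAC+SB counts in either line. Late is the name of the list, and the stage at which each gene is normally active was not examined. Over the genes that reached 100 counts, the median log2 ratio in H1299 and HCT116 was 1.71 and 6.47 for the piRNA list, 0.59 and 2.74 for the meiotic axis, 3.84 and 5.79 for the regulators and 6.88 and 3.01 for the late genes, where it rests on only 4 and 3 of the 16 genes, with 0 taken as 3 counts. Over all such genes it was -0.07 and -0.23. Between 2 and 10 genes of each germline list passed through the treated library alone and so had to differ. These medians and the 4-fold counts of the lists are therefore descriptions only. So are the counts of genes under 30 with DMSO, because that limit was chosen after the values were seen. Ratios of list genes and neighbours that take 0 as 3 counts, and medians that hold them, need not be lower bounds.

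**Figure D5:**
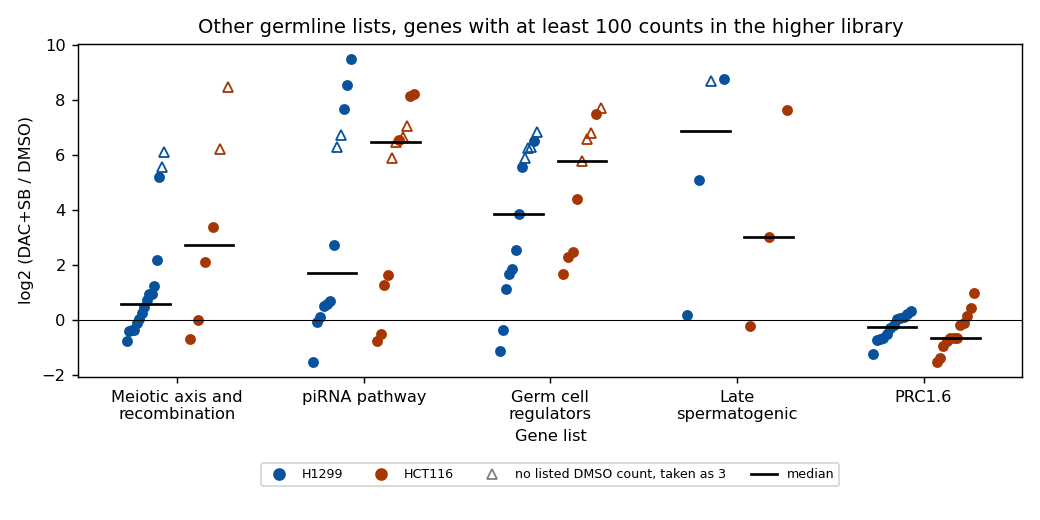
Log2 ratio of DAC+SB to DMSO for genes of the 5 fixed lists that reached 100 counts in either library of a line; open triangles are genes with no listed DMSO count, taken as 3, and black bars medians. The 4 germline lists reach above 7 in at least 1 line, while the 12 PRC1.6 genes lie between -1.52 and 0.96.

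Defining germ cell genes differed in how far they were seen. Of 9 defining germ cell genes, DAZL among them, 8 had 0 counts in H1299 DMSO and 6 in HCT116 DMSO. With DAC+SB the helicase DDX4 had 361 and 173 counts, STRA8, the switch into meiosis, 138 and 67, and SYCP1, the core of the synaptonemal complex, 97 and 39. PIWIL1 had 6 and 25 counts. The sperm genes TNP1, PRM1, PRM2 and ACR had at most 48 in either treated line, unlike HIST1H1T and HIST1H2BA of the late list above. The 12 genes of the PRC1.6 complex were at 100 counts or more in both lines and 0 of them differed 4-fold between treated and DMSO libraries, where all genes give 11.0% higher and 0.349% lower in H1299 and 9.63% and 3.69% in HCT116. With 12 genes, 0 is near those shares. Their median log2 ratio was -0.24 in H1299 and -0.64 in HCT116. CBX3 and YAF2, with most treated counts in H1299, were at 0.09 and -0.66 and at -0.70 and -0.17, H1299 first. E2F6 was at -0.19 (-0.30 to -0.07) and -0.11 (-0.24 to 0.03), and MGA at -0.28 (-0.36 to -0.21) and 0.14 (0.04 to 0.23). L3MBTL2 was lower in both lines, at -1.23 and -1.38, and RYBP higher in both, at 0.34 and 0.96. The largest change was that of TFDP1, at -1.52 in HCT116 against -0.71 in H1299.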

How the data were processed

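Counts are whole numbers as deposited, in 2 tables (gene features and TE loci) that list a cell name beside each count of at least 1. Per the labels' protocols the libraries used the 10x Genomics 5′ kit with a cell barcode and a molecular identifier in read 1. The submitters' processing notes name CASAVA, STAR and GRCh38, without versions. Whether molecular identifiers were collapsed, the annotation, the use of strand and the cell filter: not given in the sources used here. Cells were assigned to libraries by the name that ends each cell name. Library totals ran from 38927267 to 64524196 counts, so 1 count was between 0.0155 and 0.0257 CPM.

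Counts per gene were summed over features that name 1 gene, divided by gene plus TE counts, and compared as ratios (Python 3.11.15, SciPy 1.17.1), with exact Poisson, conditional binomial or Clopper-Pearson intervals, and for differences between lines a normal approximation. A gene at 0 was set to 3 counts, which is no bound where an unlisted numbered feature held counts. Every cell had at least 500 counts, doublets were not called, and 1 alternative dropped the 5% of cells richest in counts. Genes called higher needed 100 counts in the higher library and a 4-fold ratio. The ratio and thinning steps were run on simulated data, and no values from that run are given here. How the ratio step behaves for genes with 0 or few DMSO counts was not tested. The members, lists and motifs were chosen with earlier results of these data known. Other genes were named as the 2 of each list with most counts in each treated library or as germ cell markers. Further ones were the 5 genes nearest to the summed members by Euclidean distance of centred log2(CPM + 1) over the libraries. Neighbours were added afterwards, and some genes of the late and PRC1.6 lists were named outside this rule. Positions are from GENCODE 29 by symbol. Alternatives changed the features, joined names, cells, denominator, weighting, threshold, minimum and thinning depth.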

Additional observations from a re-analysis of the deposited data

Results flagged for a closer look

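HORMAD1 was the 1 member whose direction differed between the lines. Its log2 ratio was -0.87 in H1299, from 2833 to 1500 counts, and 5.46 in HCT116, from 0 listed counts, taken as 3, to 82. The difference between the lines was not tested, as each group was 1 library. For the feature without a number alone, the HCT116 value was at least 4.10.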

How the results depend on the processing

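No paired analysis was possible because the groups compared share fewer than 2 replicate numbers, each being 1 library. A fit over the 4 libraries with line as a block would take the lines as replicates of the treatment and was not run. No alternative reversed the direction of a member in either line, and 103 of 113 recomputed member ratios stayed within the counting interval of the reported value, or, where DMSO had 0 listed counts, within the change that the Poisson interval of the DAC+SB count allows. Of the 10 that did not, 7 came from counting a numbered feature only if both libraries of the line list it and 3 from dropping the 5% of cells richest in counts, and these 10 were all lower. The 3 were BRDT and MAEL in H1299 and DAZL in HCT116, each with 0 listed DMSO counts. Their DMSO side stayed at 3 counts while the DMSO total fell, which lowers the ratio by construction. The summed log2 ratio of 1.77 in H1299 was 1.49 with the restriction on features, 1.84 with mitochondrial and ribosomal protein genes left out of the denominator, 1.49 without BRDT and 5.67 without HORMAD1. The summed ratio of 5.26 in HCT116 was 4.56 with the restriction on features and lay between 5.18 and 5.40 under the others. The number of members at least 4-fold higher was 8 or 9 of 9 or 10 tested in H1299 and 5 of 6 or 6 of 7 in HCT116, or 9 of 10 with a minimum of 10 counts or of 1 count. With the restriction on features (8 of 9, 5 of 6) 7.91% and 6.15% of all genes passed, and with a 2-fold threshold, where 9 of 10 and 7 of 7 members passed, 18.3% and 16.2%. At those minimums 21.8% and 19.9% of all genes in H1299 and 22.3% and 22.0% in HCT116 passed. BOLL had exactly 100 counts in treated H1299 and left the count when cells or features were left out. No joined name held a member, so the 20 ratios with joined names added, counted among the 103, could not move. The restriction on features likewise could not move a gene whose numbered feature both libraries of the line list. Shares of cells moved with depth by construction, 34 of 48 without thinning and 27 of 48 at 2200 counts. Members at 0 to 4 DMSO counts have ratios limited by those counts, and variation between cultures was not measured.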

Other observations

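The 5 genes whose centred profile over the 4 libraries lay nearest to the summed members, among 15505 genes, were PAGE2B, GSTM3, MAP9, HIST1H2BG and DSEL. PAGE2B, a cancer-testis gene, had 398 DMSO and 1571 DAC+SB counts in H1299, and 0 and 771 in HCT116. GSTM3, a glutathione transferase, had 891, 1829, 1 and 903 counts in the same order. Both genes, like the sum, were lower in untreated HCT116 than in untreated H1299; the sum itself had 271 counts in untreated HCT116. Without HORMAD1, a choice made after the values were seen, the nearest genes were PNMA5, RP11-59N23.3, DNAH3, MT3 and FILIP1. PNMA5 had 1, 1631, 0 and 1724 counts, and DNAH3, a dynein heavy chain of cilia and flagella, had 0, 2238, 7 and 2497 counts. A likeness over 4 libraries is a description and says nothing of shared function.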
